A study of Macaca fascicularis with 44 samples.

Results

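Among 28623 gene identifiers measured in cynomolgus monkey brain endothelial cells (BECs), 194 kept a similar mean level from the freshly isolated cortical microvessels to the first week of culture and then shifted once the cells had been re-plated: 40 were higher and 154 were lower after re-plating. These genes were chosen by their measured values. With FPKM (read pairs per gene, corrected for gene length and library depth) as the level, a gene qualified when its mean reached at least 1 FPKM in either cultured fraction, when its P0D7 mean lay between 0.67 and 1.5 times its P0D0 mean, and when its P1D7 mean was above 1.5 or below 0.67 times its P0D7 mean. In addition, every P1D7 library had to lie on the same side of all P0D7 libraries. Of the identifiers, 11483 reached the level and 4188 of these stayed inside the band from P0D0 to P0D7. Within the band, the ratio alone was passed by 150 genes upwards and 465 downwards, and the separation of the libraries reduced these to 40 and 154. The split between the directions depended on scaling: when FPKM values were divided by the trimmed-mean (TMM) factor of each library, 82 genes were higher and 81 were lower, and these included 39 of the 40 and 81 of the 154.

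BECs line the capillaries of the brain and form the blood-brain barrier. They are held together by tight junctions, take up nutrients through transporters, and in the tissue are covered by pericytes and astrocyte endfeet. Taken out of the tissue and grown on a coated dish, they are known to lose part of this specialised programme. Re-plating detaches the cells, breaks the monolayer into single cells and lets them attach and spread to confluence again.

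The 22 cortical libraries comprised 8 of P0D0 (microvessels obtained by enzymatic digestion and gradient centrifugation), 8 of P0D7 (the same material grown for 7 days in endothelial growth medium) and 6 of P1D7 (cortical BECs singularized after the P0 week and grown for another 7 days). The animals were monkeys of both sexes that had taken part in earlier preclinical studies. A further 22 P0D7 libraries came from the hippocampus (7), striatum (7), brainstem (6) and cerebellum (2), with no P0D0 or P1D7 stage. Puromycin, which selects for BECs because they pump it out, was added during P0 only, and P1D7 therefore differed from P0D7 in re-plating, in the further 7 days and in the time since selection, which cannot be told apart. P0D0 vessels also carried RNA of other cells of the vessel wall and tissue. In bulk RNA, fewer cells of a type and less RNA per cell cannot be told apart. Total counts per library were 8600889 to 10738453 in P0D0, 15513781 to 23138726 in cultured cortex and 8633089 to 24450445 outside the cortex. Sample titles hold 10 BBB codes, read here as preparations. All 3 cortical fractions were present for 6 of them (BBB029 to BBB032, BBB035 and BBB036), and the labels do not say whether different codes are different animals.

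Gene symbols were not used here. Of 28623 identifiers, 0 were found among the 40596 genes of the RefSeq table used, so the genes are given by Ensembl identifier, without roles. Gene lists and cell type markers, which need symbols, were not analysed, and the labelled cell type was not checked against its markers. Of the members with at least 10 FPKM in the higher cultured fraction, the 2 with the largest rise and the 2 with the largest fall are described in full.

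The members ranged from barely expressed to among the most abundant transcripts. Of the 40 higher members, 15 had a mean under 10 FPKM in the higher cultured fraction, 19 were between 10 and 100 FPKM and 6 reached at least 100 FPKM. The lower members were distributed likewise, with 60, 82 and 12 genes. The median higher member had 9.11 FPKM in P0D7 and 17.6 in P1D7, and the median lower member 15.1 and 7.99. Most shifts were modest. The median ratio of the P1D7 to the P0D7 mean was 1.82 for higher and 0.542 for lower members. A change of at least 2-fold was reached by 16 higher and 65 lower members, and of at least 4-fold by 2 and 13. Together, the higher members took 0.668% of the library counts in P0D7 and 1.13% in P1D7, and the lower members 1.32% and 0.631%. Most of the share of the higher members came from a single gene, the most abundant, with 662008 counts over all P0D7 and 752449 over all P1D7 libraries. The members nearest to the limit had ratios of 1.53 and 0.667, and the nearest genes outside it had 1.496 and 0.6702.

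At the upper end stood a higher member, chosen for its level, with a gene model of about 333 bases. In P0D0 its lowest, median and highest library had 7492, 13537 and 16416 FPKM, in P0D7 9524, 13375 and 13977, and in P1D7 18271, 20005 and 23666. Outside the cortex it ran from 9495 to 15481 FPKM in all 22 libraries, below every P1D7 library. The most abundant lower member fell from 766 ± 183 FPKM in P0D7 (SD, n = 8) to 329 ± 33.0 in P1D7 (SD, n = 6), against 850 ± 226 in P0D0 (SD, n = 8). At the other end, the lower member with the smallest ratio had 2 counts in all 6 P1D7 libraries together. The same gene had 6 to 131 counts in each P0D7 library of the cortex, and 3 to 31 in each P0D0 library.

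The higher member with the largest ratio among those of at least 10 FPKM was ENSMFAG00000040537. In P0D0 its lowest, median and highest library had 3.80, 13.2 and 23.3 FPKM, in P0D7 3.30, 17.2 and 28.4, and in P1D7 50.9, 69.9 and 112. P0D0 and P0D7 libraries overlapped over nearly their whole range, while the P1D7 libraries stood apart from both. The group means were 13.3 ± 7.74, 16.8 ± 10.2 and 73.8 ± 23.2 FPKM (SD, n = 8, 8 and 6), a ratio of 4.40 between the cultured fractions. Within the 6 preparations the rise from P0D7 to P1D7 ran from 3.93-fold in BBB031 to 15.4-fold in BBB036. From P0D0 to P0D7, by contrast, the same gene moved in both directions, by a factor of 0.411 in BBB032 and of 3.06 in BBB031. The stable mean was thus an average over preparations that did not each hold their level.

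The second higher gene, ENSMFAG00000046290, varied less between libraries. It had 2.61, 5.12 and 8.87 FPKM (lowest, median and highest) in P0D0, 2.47, 3.55 and 5.96 in P0D7 and 8.62, 12.8 and 17.8 in P1D7. A single P0D0 library, that of BBB032 with 8.87 FPKM, reached into the P1D7 range. Means were 5.18 ± 1.92, 3.98 ± 1.10 and 12.9 ± 3.62 FPKM (SD, n = 8, 8 and 6). In the 6 preparations the rise ran from 2.85-fold in BBB030 to 4.41-fold in BBB035.

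Among the lower members of at least 10 FPKM, ENSMFAG00000042597 had the smallest ratio, 0.0653. Its libraries had 2.58, 6.90 and 13.6 FPKM in P0D0, 3.75, 8.27 and 21.8 in P0D7 and 0.393, 0.684 and 0.944 in P1D7 (lowest, median and highest). Every P1D7 library was below every library of both other fractions, and the P1D7 values rested on 22 to 55 counts per library. In the preparations, P1D7 ran from 0.0434 times P0D7 in BBB036 to 0.0827 times in BBB035. Between P0D0 and P0D7 the ratio ran from 0.567 in BBB029 to 4.29 in BBB036.

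ENSMFAG00000042891, the other lower gene, was more abundant. P0D0 libraries had 30.9, 180 and 271 FPKM, P0D7 libraries 38.5, 88.6 and 276, and P1D7 libraries 6.84, 10.1 and 13.8 (lowest, median and highest). The spread narrowed along with the level, from 131 ± 93.2 FPKM in P0D7 (SD, n = 8) to 10.3 ± 2.24 in P1D7 (SD, n = 6). Because P1D7 levels were alike while P0D7 levels were not, the fall differed between preparations, from 0.0248 times in BBB031 to 0.260 times in BBB035. The change from P0D0 to P0D7 ran from 0.191 times in BBB035 to 3.31 times in BBB029.

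**Figure D1:**
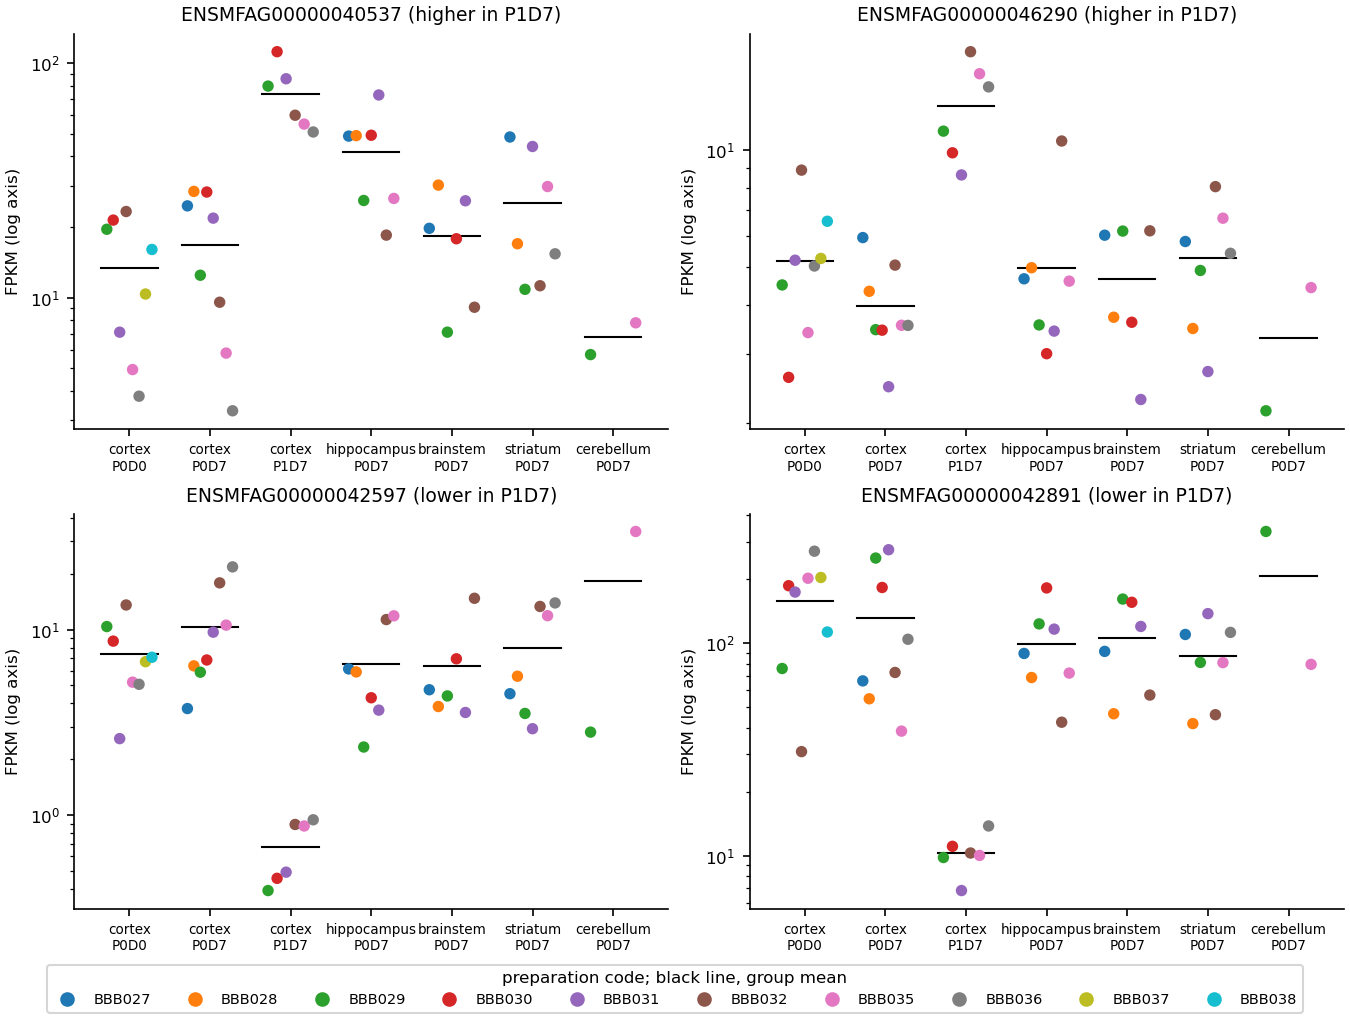
Level of the 4 named genes in each of the 44 libraries, in FPKM on log axes, by group, with the colour giving the preparation code and the black line the group mean. The 6 P1D7 libraries sit above all 8 P0D7 cortex libraries for ENSMFAG00000040537 and ENSMFAG00000046290 and below them for ENSMFAG00000042597 and ENSMFAG00000042891.

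For a pair of the named genes, some preparations held the same end of the range in P0D7 and P1D7. Selected after the values were seen, BBB032, BBB035 and BBB036 had the 3 highest levels of ENSMFAG00000042597 both in cortical P0D7 (10.6 to 21.8 FPKM, against at most 9.68 in the other 5 libraries) and in P1D7 (0.874 to 0.944, against at most 0.493). The same 3 had the lowest levels of ENSMFAG00000040537 in P0D7 (3.30 to 9.57 FPKM, the others at least 12.5) and in P1D7 (50.9 to 59.9, the others at least 79.8). Outside the cortex the order of ENSMFAG00000042597 was seen again in the striatum, at 11.9 to 13.9 FPKM against at most 5.61 in its other 4 libraries. That of ENSMFAG00000040537 was not, since BBB035 had 29.8 FPKM in the striatum, above BBB028 (17.0) and BBB029 (10.9), and BBB035 had 26.5 FPKM in the hippocampus, close to BBB029 (26.0). In P0D0 the order of ENSMFAG00000042597 was not seen, with BBB035 and BBB036 at 5.21 and 5.07 FPKM of that gene. Across all genes, deviations from the group means of P0D7 and P1D7 libraries of the same preparation correlated at 0.383 on average (6 pairs). The points of each correlation are genes, which are not independent.

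For the whole set, the edgeR quasi-likelihood fit of the cortical counts called all 40 higher members up and 104 of the 154 lower members down from P0D7 to P1D7, where a call needed a 1.5-fold difference and an adjusted p (Benjamini-Hochberg) not above 0.05. Of all 13522 genes tested, 6.01% were called higher and 9.45% lower. Because the rule used this contrast, the counts describe the members and test nothing. The number of lower members called followed the scaling: with library size alone it was 147 (14.6% of all genes), since TMM moved the median of all genes from -0.18 to -0.02 on the log2 scale. From P0D0 to P0D7, also fixed by the rule, 1 of 40 and 8 of 154 members were called (6 of the 8 up, 2 down), where 66.5% of all genes were called. The called share of the members depended on the fit here too. With the preparation as a block, 6 of the 40 (1 up, 5 down) and 15 of the 154 (13 up, 2 down) were called (67.1% of all genes). DESeq2 also called 6 of the 40, all down (8997 of all genes). Against the original microvessels, P1D7 was called higher for 36 of the 40 (29.2% of all genes) and lower for 90 of the 154 (34.3%). The rule, which kept P0D7 near P0D0 and placed P1D7 beyond P0D7, largely fixed this contrast too, and nothing is read from these shares.

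Separation from the P0D7 libraries was set by the rule, and separation from the P0D0 libraries followed in part from it. All 6 P1D7 libraries were above all 8 P0D0 libraries for 27 of the 40 higher members, and below all 8 for 77 of the 154 lower ones. Of all 13522 genes, 22.0% and 30.4% were separated in this way. P0D0 and P0D7 libraries overlapped for 40 of 40 higher and 152 of 154 lower members. Such overlap was also present for 96.7% of the 4188 genes of the band. The P0D7 mean was above the P0D0 mean for 105 of 154 lower members (median ratio 1.12) and for 21 of 40 higher members (median ratio 1.02), against 53.8% of the genes of the band. All these values entered the rule, which chose lower members for a P0D7 level above that of P1D7, and nothing is read from the shares.

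**Figure D2:**
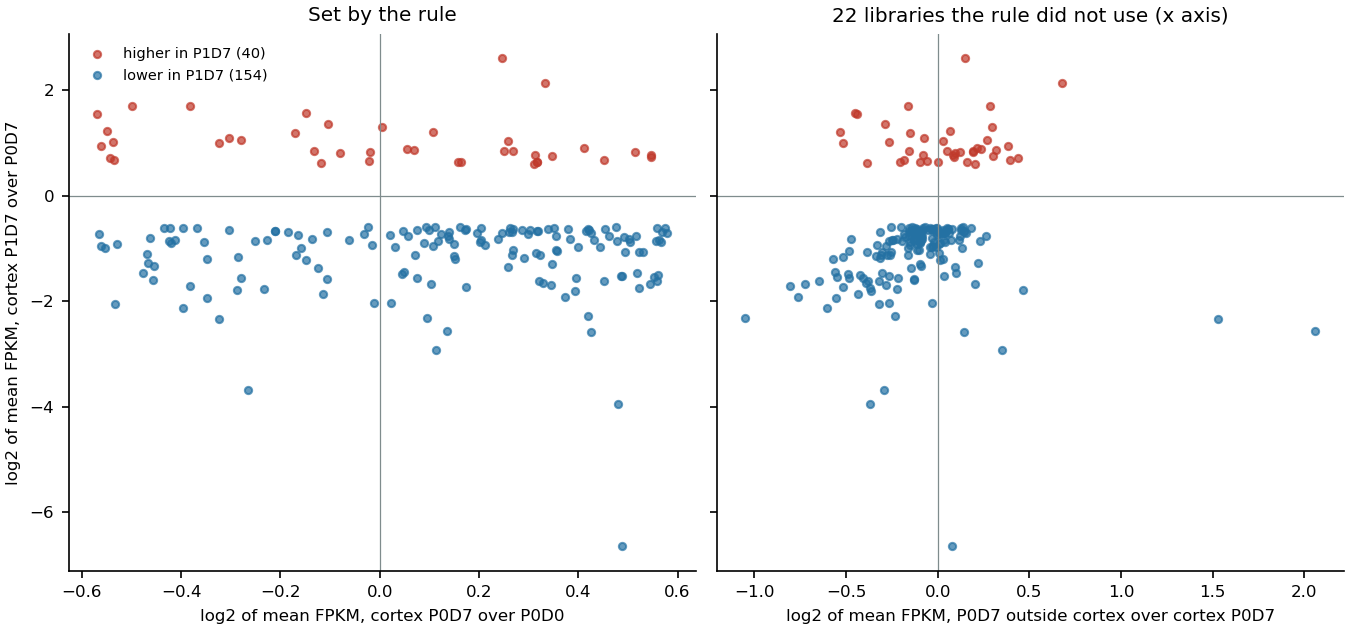
Each point is a member, red for the 40 higher and blue for the 154 lower; the vertical axis is log2 of the P1D7 over the P0D7 mean FPKM in cortex. The left horizontal axis is the P0D7 over P0D0 ratio that the rule confined to the band, and the right one is the mean of the 22 P0D7 libraries outside cortex over the cortical P0D7 mean, a denominator that both right-hand axes share; most points lie near 0 there, and 2 lower members lie far to the right.

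The separation that the rule asked for fixed the direction of each member in every preparation, and the size of the change differed between them. The median higher member rose 1.57-fold in BBB035, 1.89-fold in BBB030, 2.09-fold in BBB031, 2.11-fold in BBB029, 2.20-fold in BBB032 and 2.33-fold in BBB036. For the median lower member, the P1D7 level was 0.615 times the P0D7 level in BBB035, the smallest change, and 0.419 times in BBB032, the largest. BBB035 was thus the weakest in both directions. The median over all 13522 genes ran only from 0.862 (BBB032) to 0.912 (BBB035). In all 6 preparations, 16 of the 40 higher members passed 1.5-fold (1.51% of all genes did) and 61 of the 154 lower members were under 0.67 (5.01%). The rule used the same libraries, and nothing is read from these shares.

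Stability from P0D0 to P0D7 was a property of the means and not of each preparation. Only 2 of 40 higher and 5 of 154 lower members stayed within 0.67 to 1.5 in all 6 preparations, where 15.1% of the 4188 genes in the band and 4.67% of all 13522 genes did. In at least 4 of the 6 preparations, 25 and 79 members did, a count that was not made over all genes. These libraries entered the rule as well, and the shares are a description. The median lower member had a P0D7 level 0.898 times that of P0D0 in BBB035 and 1.46 times in BBB031, and the median higher member 0.746 times in BBB029 and 1.18 times in BBB035. Over all 13522 genes the median was 0.951 times in BBB035, 1.18 times in BBB031 and 0.890 times in BBB029.

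**Figure D3:**
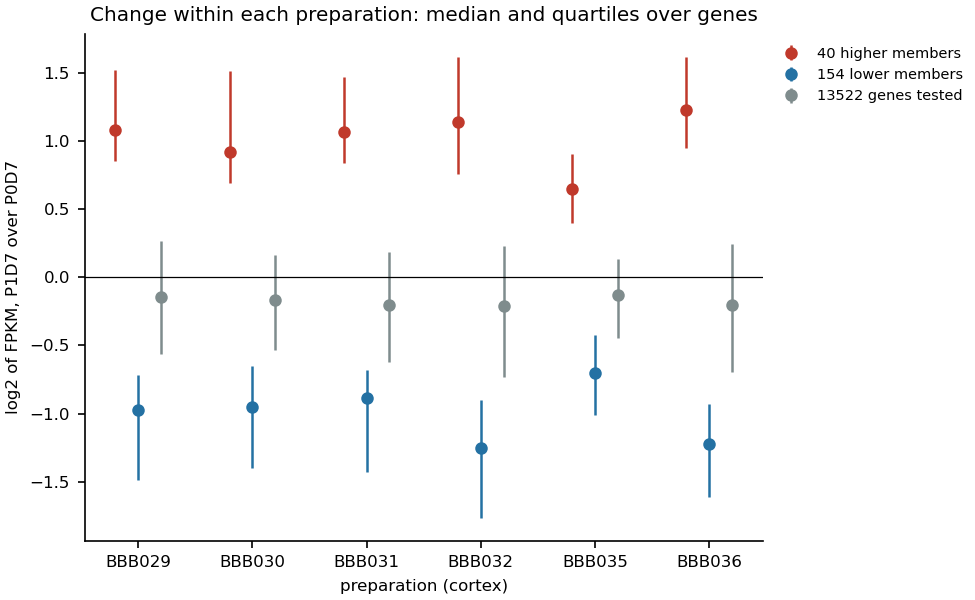
Change from P0D7 to P1D7 inside each of the 6 preparations, as log2 of the FPKM ratio; points are medians over the 40 higher members (red), the 154 lower members (blue) and all 13522 genes tested (grey), and bars span the quartiles over genes. BBB035 has the smallest change in both directions, 1.57-fold and 0.615 times.

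The 22 P0D7 libraries of the other structures were not used to choose the members. They carry the same preparation codes as the cortical P0D7 libraries that were, and so are not independent of them. There the members had levels much like those of cortical P0D7: the mean outside the cortex was within 0.67 to 1.5 times the cortical P0D7 mean for 39 of 40 higher members (median ratio 1.05) and for 146 of 154 lower members (median ratio 0.925), with a median of 0.997 over 12014 genes. Both medians lay on the P1D7 side of 1, and the cortical P0D7 values in the denominator are those the rule selected on. The share of all genes within these limits was not counted, so nothing particular to the members is read from the 39 and 146. All 6 P1D7 libraries were above all 22 of these libraries for 21 of the 40 higher members (52.5%, against 1.30% of 12014 genes). They were below all 22 for 71 of the 154 lower members (46.1%, against 4.70%). At least 20 of the 22 libraries lay on the P0D7 side of every P1D7 library for 29 higher and 114 lower members, where 2.65% and 11.2% of the 12014 genes were so placed. An edgeR fit of these 28 libraries compared P1D7 with the equal-weight mean of brainstem, hippocampus and striatum, so the cerebellum was in the fit only. P1D7 was called higher for 37 of 40 (6.87% of genes) and lower for 81 of 153 tested (8.96%). With library size alone the counts were 30 (4.48% of genes) and 118 (13.8%). The P1D7 libraries and the preparation codes of the 22 libraries are shared with the rule, so these counts and shares are a description. P1D7 was made from cortex only, so fraction and structure cannot be told apart in these values.

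The number of members that overlapped P1D7 differed between the P0D7 libraries, also within a preparation. Such numbers were not counted over all genes, so whether the differences are particular to the members was not tested. Of the 154 lower members, 30 did not stand above every P1D7 library in the brainstem of BBB027, and 27 in that of BBB028, followed by 22 in the cerebellum of BBB029 and 20 in the brainstem of BBB031 and the striatum of BBB028. The other libraries of BBB027 had 11 (hippocampus) and 12 (striatum). The 3 libraries of BBB032 had 0 (brainstem), 0 (striatum) and 4 (hippocampus) such members. For the 40 higher members the largest numbers were 9 in the brainstem of BBB028 and 8 in the hippocampus of BBB031 and in the striatum of BBB028. The brainstem of BBB032, the striatum of BBB035 and the cerebellum of BBB035 had 0.

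**Figure D4:**
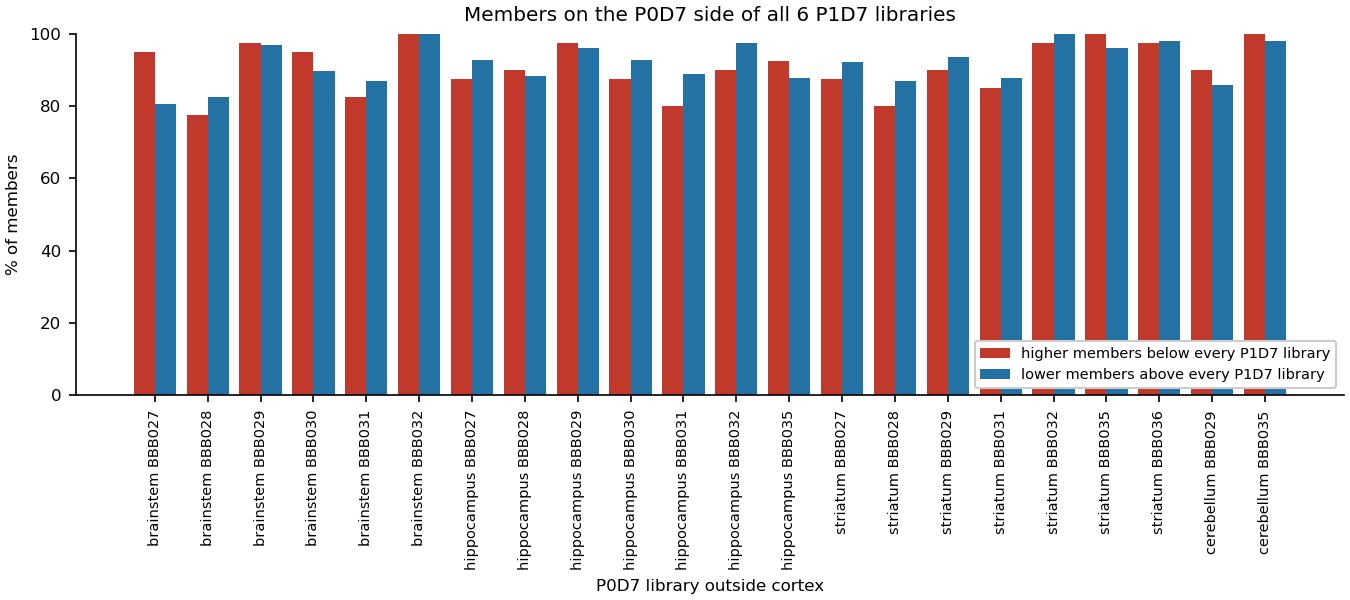
Percentage of the 40 higher members (red) that lie below every P1D7 library, and of the 154 lower members (blue) that lie above every P1D7 library, for each of the 22 P0D7 libraries outside cortex. The brainstem library of BBB032 reaches 100% in both, while those of BBB027 and BBB028 lack 30 and 27 of the lower members. Shares over all genes were not counted per library.

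Between the structures, no member passed the test in the fit without the preparation. Brainstem, hippocampus and striatum were compared at P0D7 with the edgeR quasi-likelihood test over 11954 genes, of which 40 were higher and 153 were lower members. It called 0 members in each of the 3 pairs, and 0% of all genes. At an unadjusted p under 0.05 there were 5 higher and 21 lower members for brainstem against hippocampus (1409 of all genes), 0 and 8 for striatum against hippocampus (637) and 1 and 0 for striatum against brainstem (133). DESeq2 likewise called 0 members in each pair, with 6, 5 and 0 genes in all. With the preparation as a block, which the pairing of these libraries allowed, 3 higher members were called lower in brainstem than in hippocampus, and 5 lower members were called (3 higher and 2 lower in brainstem). Of all genes, 1.32% were called higher and 1.30% lower in brainstem (2.62% together). Neither pair with striatum gave a called member under the block, where 0.0251% (striatum against hippocampus) and 0% of all genes were called.

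ENSMFAG00000040537 was among the 3. It had 18.5, 48.8 and 73.1 FPKM in the hippocampus (lowest, median and highest of 7), 7.13, 18.8 and 30.2 in the brainstem (6 libraries) and 10.9, 17.0 and 48.4 in the striatum (7 libraries). The 2 cerebellum libraries had 5.72 and 7.82 FPKM. In order of the means, hippocampus (41.6 ± 19.0, SD, n = 7) came before striatum (25.3 ± 15.7, SD, n = 7), brainstem (18.3 ± 9.06, SD, n = 6) and cortex (16.8 ± 10.2, SD, n = 8), and neighbours in that order overlapped. The brainstem to hippocampus log2 difference of counts was -1.16 (SE 0.44, adjusted p = 0.36, edgeR) without the block and -1.21 (SE 0.22, adjusted p = 0.029, edgeR) with it. Each SE was calculated here from the log2 difference and the F statistic. Within each of the 6 preparations that had both, the hippocampus was the higher library. The highest hippocampus library, that of BBB031 at 73.1 FPKM, was above the P1D7 libraries of BBB032, BBB035 and BBB036 (50.9 to 59.9 FPKM) and below that of its own preparation (85.7 FPKM).

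The other 3 named genes had similar levels in the structures. Means of ENSMFAG00000046290 were 4.97 ± 2.56 FPKM in hippocampus, 4.68 ± 1.69 in brainstem and 5.29 ± 1.82 in striatum (SD, n = 7, 6 and 7). ENSMFAG00000042597 had 6.51 ± 3.71, 6.38 ± 4.27 and 7.96 ± 4.87 FPKM, and ENSMFAG00000042891 99.3 ± 46.0, 105 ± 48.8 and 87.2 ± 35.4 (SD, n = 7, 6 and 7). None of their structure differences passed the edgeR test without the preparation block (adjusted p between 0.90 and 1.00), with log2 differences from -0.27 to 0.33. That fit ignored the pairing of the libraries. With the block none of these differences was called either. The 2 cerebellum libraries were far apart for the lower genes, at 2.80 FPKM (BBB029) and 33.8 FPKM (BBB035) for ENSMFAG00000042597 and at 336 and 79.5 FPKM for ENSMFAG00000042891.

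The P0D7 levels of members were also compared between preparations. An F test of the 8 preparations in the same 22 libraries, with structure in the model, called 29 of 40 higher members (72.5%) and 125 of 153 lower members (81.7%) at an adjusted p of at most 0.05, where 64.4% of all 11954 genes and 61.7% of the 4177 tested genes of the band were called. With each library left out in turn, 25 to 32 higher and 99 to 126 lower members were called. For the higher members this range includes the share of all genes in the full fit. The number of all genes called moved too. Without hippocampus replicate 6 it was 6394, beside 26 higher and 104 lower members. Without striatum replicate 6 it was 8061, beside 32 and 120. All 4 named genes passed (edgeR adjusted p = 0.0013 for ENSMFAG00000040537, 0.0068 for ENSMFAG00000046290, 2.2e-04 for ENSMFAG00000042597 and 0.0014 for ENSMFAG00000042891). Library spread was somewhat larger for the members than for genes of the band. The SD of log2 CPM (counts scaled here by library size and TMM factor, with a small constant added) was taken within structures. It had a median of 0.38 over higher and 0.27 over lower members, 0.23 over the band and 0.28 over all genes.

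Across these libraries, members of the same direction correlated weakly with each other. After centring by structure, the median pairwise correlation of log2 CPM was 0.257 between higher members, 0.154 between lower members and -0.198 between a higher and a lower member, against 0.0212 within the band. The 22 points share preparations, depth and normalization, and the correlations are given as a description. In the preparation profile, the median lower member stood 0.23 log2 units above its structure mean in BBB032, with 112 of 153 above it, and the median higher member 0.26 below, with 10 of 40 above it. BBB028 showed the opposite, with higher members 0.22 above (33 of 40) and lower members 0.093 below (37 of 153 above). BBB027 and BBB031 resembled BBB028, and BBB036, with a single library, resembled BBB032. The median of all genes stayed between -0.019 and 0.0050 in every preparation.

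**Figure D5:**
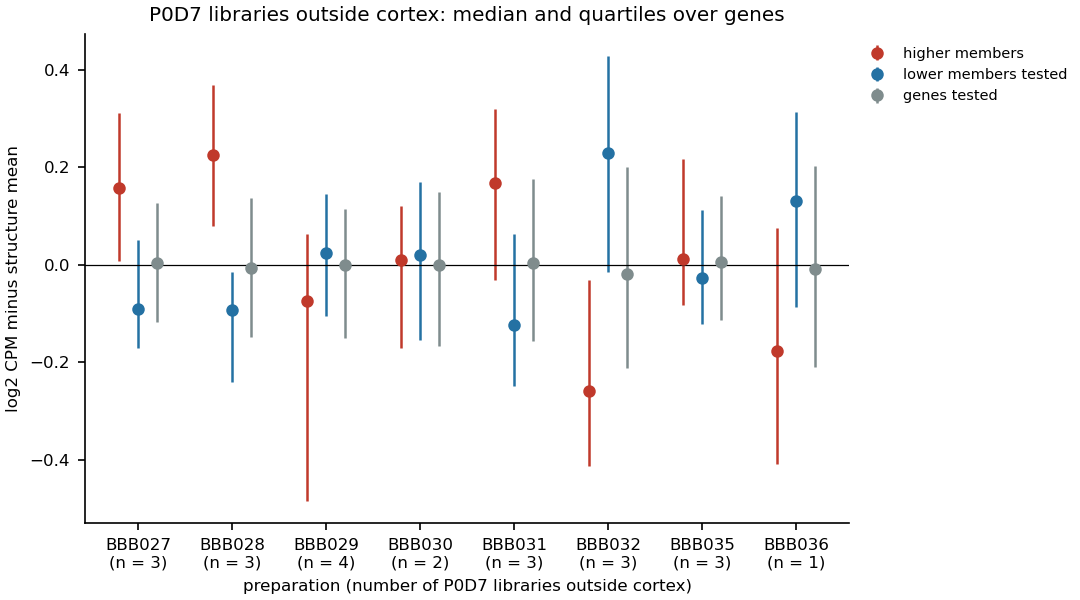
Deviation of log2 CPM from the structure mean in the P0D7 libraries outside cortex, by preparation (number of libraries in brackets); points are medians over 40 higher members (red), 153 lower members (blue) and 11954 genes (grey), and bars span the quartiles over genes. BBB032 has high lower members and low higher members, 0.23 above and 0.26 below, and BBB027, BBB028 and BBB031 show the reverse.

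The change was present in the counts as well as in FPKM, which divides by gene length. The length implied by counts and FPKM differed by over 5% between P1D7 and P0D7 for 2 of 40 higher and 9 of 154 lower members (248 of the 4188 genes of the band). In CPM scaled by library size alone, which uses no length, 40 of 40 and 152 of 154 members stayed beyond the limits of the ratio, and 38 and 151 stayed without overlap. CPM and FPKM come from the same counts of the libraries that the rule used. This outcome was therefore largely fixed in advance, and the counts are a description. The implied length had a median of 2900 bases over higher and 2587 bases over lower members, against 2684 in the band.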

How the data were processed

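RNA was sequenced as paired ends after ribosomal RNA depletion. The authors removed ribosomal, low-quality and short reads, aligned the rest to the Washington University cynomolgus assembly with the Omicsoft Sequence Aligner in ArrayStudio, and assigned the pairs to Ensembl genes. The deposited tables hold estimated counts, not normalized (1.45% of values not whole), and FPKM, which the authors scaled to gene length and library total. Members with under 10 counts in a P1D7 library (4 lower members) have the corresponding counting error.

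Here the rule was applied to FPKM with no pseudocount (0.01 was added for medians of log ratios within preparations). Counts were rounded and fitted with edgeR 4.0.16 in R 4.3.3 (TMM, trended dispersion, quasi-likelihood F test, Benjamini-Hochberg over all genes tested), and with DESeq2 1.42.0 as an alternative. The 3 cortical fractions shared a fit of 13522 genes that reached 1 FPKM in 50% or more of any fraction's libraries. The 22 other P0D7 libraries shared a fit of 11954 genes that reached 1 FPKM in 3 or more libraries. P1D7 and these 22 libraries shared a further fit of 12014 genes. Its genes reached 1 FPKM in 50% or more of the P1D7 libraries or in 3 or more of the 22. The fits were run on simulated counts with a single dispersion and, in the group contrasts, no preparation effect. The simulation of these contrasts thus does not cover the variation between preparations. The members, lists and tests were chosen with earlier results of these data known. The 4 named genes are the 2 members in each direction with the largest ratio and at least 10 FPKM in the higher cultured fraction. Preparation codes were taken to pair libraries where every pair's deviations correlated over 0.1: this held for P1D7 with P0D7 (lowest 0.251) and for the structures (lowest 0.240), and not for P0D7 with P0D0 (lowest -0.0050) or P1D7 with P0D0 (lowest 0.045). Separate cultures are not stated beyond these codes, and the p-values cover only the variation among these libraries, which may be partly technical. Alternatives were other scalings, filters, limits, DESeq2, the preparation block and leaving out each library. In the cortex the block fit held only the libraries of preparations present in all 3 fractions, so its counts differ from the main fit in libraries too. It also blocked P0D7 with P0D0, which did not meet the limit for pairing.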

Additional observations from a re-analysis of the deposited data

Results flagged for a closer look

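Of 24 sets of libraries tested for a library far from the rest (the 4 named genes in the 6 groups of 6 to 8 libraries), 2 had such a library, where chance gives about 1 in 20. Both libraries came from preparation BBB032. In the brainstem, ENSMFAG00000042597 had 14.7 FPKM in replicate 6, and 3.57 to 6.96 FPKM in the other 5 libraries. In the hippocampus, ENSMFAG00000046290 had 10.5 FPKM in replicate 6, and 3.00 to 4.99 FPKM in the other 6 libraries. Both genes differed between preparations in these 22 libraries (edgeR adjusted p = 2.2e-04 and 0.0068). These tests include the libraries named here.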

How the results depend on the processing

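The number of members followed the settings of the rule. Against 40 higher and 154 lower members, FPKM divided by the TMM factor gave 82 and 81, a narrower band from 0.8 to its reciprocal gave 24 and 78, a change of 2 and 0.5 gave 16 and 65, allowing overlap gave 150 and 465, and only the 6 preparations in all 3 fractions gave 64 and 244. CPM, medians and other level minimums stayed within 1.5 times. Leaving out each of the 22 libraries gave 35 to 58 higher and 149 to 201 lower members. For P0D7 against P0D0, 1 higher member (up) and 8 lower members were called, beside 8995 of all 13522 genes. The higher count was 6 with DESeq2 and 6 with its size factors in edgeR, all down (8997 and 8979 of all genes). It was 4 without a filter, all up (11841 of 20145 genes), and 6 with the replicate block by preparation, 1 up and 5 down (9076 genes). The lower count was 22 without a filter, 5 with library size alone (9001 genes) and 15 with the replicate block. Leaving out a library gave 1 to 4 higher members (2 without P0D0 replicate 3 or 4 or P0D7 replicate 1 or 3, 3 without P0D0 replicate 6 or P0D7 replicate 2, 4, 6 or 7, and 4 without P0D0 replicate 2 or 8 or P0D7 replicate 8) and 6 to 14 lower members (14 without P0D7 replicate 7). Of all genes, 8893 (without P0D7 replicate 6) to 9097 (without P0D7 replicate 7) were called as each library was left out. For brainstem against hippocampus, the replicate block gave 3 higher and 5 lower members (313 of 11954 genes) where 0 were called without it. With the block, ENSMFAG00000040537 had a log2 difference of -1.21 and was called. The cause of these shifts was not tested. In the paired fit no other count of called members moved by over 1.5 times. No called value of a named gene changed direction under any alternative run. Preparation calls ran from 25 to 32 higher and 99 to 126 lower members as each library was left out. The number of all genes called moved too (6394 without hippocampus replicate 6, 8061 without striatum replicate 6). P1D7 against P0D7 calls ran from 39 to 40 and 92 to 107. Of all genes, 654 to 1010 were then called higher and 1142 to 1414 lower.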

Other observations

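Among the lower members, 2 had a mean outside the cortex 2.88 and 4.17 times that of cortical P0D7, both singled out after their values were seen. The one with the ratio of 4.17 had 2.26 to 10.8 FPKM in cortical P0D7 (median 2.97) and 0.282 to 1.26 FPKM in P1D7. In the brainstem it had 6.26 to 99.1 FPKM (median 11.4), in the hippocampus 6.22 to 35.6 (median 13.1) and in the striatum 4.44 to 24.5 (median 10.7). The other had 0.533 to 2.68 FPKM in cortical P0D7 and 0.0883 to 0.419 in P1D7, on 3 to 14 counts per P1D7 library. It had 1.45 to 13.7 FPKM in the brainstem and 0.725 to 14.4 in the striatum, but 0.293 to 3.86 in the hippocampus. The largest rise of any member, 6.12-fold, was in a gene under the 10 FPKM limit for naming, with 0.169 to 1.54 FPKM in cortical P0D7 and 2.94 to 7.75 FPKM in P1D7. Its levels outside the cortex stayed between 0.0367 and 2.17 FPKM in the 22 P0D7 libraries, below every P1D7 library.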
